A study of Mus musculus with 12 samples.

Results

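Son, Hmgn1, Ets2, Setd4, Paxbp1 and Chaf1b are 6 genes of distal mouse chromosome 16 whose proteins work in the nucleus, on chromatin, transcription or splicing, and all 6 are present in an extra copy in Ts1Cje mice. Every probe set annotated to them was taken, so 6 of the 8252 genes named on the array entered, with 7 of its 12488 probe sets: 2 for Son and 1 for each of the others. All 7 passed the filter on low signal and were tested among 7453 probe sets. The question was how far the added copy showed in the RNA of each gene at birth and during the growth of the cerebellum, and how each gene ran over that period.

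Son is a large protein of nuclear speckles, the bodies where splicing factors gather, and helps weak splice sites to be used. Hmgn1 binds the nucleosome core and loosens the packing of chromatin by linker histone. Paxbp1 links Pax transcription factors to enzymes that methylate histone H3. Setd4 belongs to the SET-domain lysine methyltransferases, and Chaf1b is the middle subunit of chromatin assembly factor, which lays down histones on newly copied DNA. Ets2 is a transcription factor of the ETS family that acts downstream of Ras and MAP kinase signalling. In the mouse cerebellum most granule neurons are born after birth, so the share of dividing cells is high in the newborn and falls as neurons mature and myelin forms.

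Ts1Cje mice carry a segmental trisomy of chromosome 16 and model Down syndrome. Euploid mice, without this trisomy, were the controls. Pooled total RNA of whole cerebellum was hybridised for newborns (P0) and for postnatal days 15 and 30 (P15, P30). The euploid P0 and P15 pools and all 3 Ts1Cje pools held RNA of 3 cerebella each, and the euploid P30 pool that of 2. Each of the 6 pools was measured on 2 arrays, so the pool is the replicate, arrays of a pool differ only technically, and a single stage sets 1 pool against 1 pool with no test. Order along the chromosome, away from the centromere, was Paxbp1, Son, Setd4, Chaf1b, Ets2 and Hmgn1.

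Median signal per array was 30.4 to 36.2. Listed cerebellar markers were present: the summed signal of 5 Purkinje cell genes (of 7 listed) was 582.3 to 843.0 in newborns and 7430.6 to 8037.7 at P30, and that of 7 granule cell genes (of 8 listed) was 2682.3 to 3094.4 and 8580.7 to 10527.7. The Ts1Cje P15 pool stood apart. Xist, which coats the silenced X in female cells, read 105.6 and 77.6 there against 1.4 to 6.7 on the other 10 arrays. Of the Y-linked genes, Kdm5d was low there, at 0.6 and 1.9 against 3.8 to 10.8. Uty, at 11.5 and 16.1, lay within the range of the others (7.6 to 23.4), and Eif2s3y, at 45.3 and 27.5, was within it on 1 array and below it on the other (38.7 to 74.3). In the same pool 3 forebrain markers (of 6 listed, all under the signal filter) summed to 87.7 to 112.4 against 2.7 to 25.4 elsewhere. Purkinje genes summed to 5778.1 to 6271.6 in it against 7676.0 to 7678.0 in the euploid P15 pool, and granule genes to 7731.4 to 8772.0 against 9083.7 to 10871.1. In newborns, choroid plexus genes (4 of 5 listed on the array) summed to 171.6 to 174.2 in the Ts1Cje and 395.5 to 431.6 in the euploid pool. Blood genes (3 of 7 listed on the array) summed to 2535.2 to 3422.7 in the Ts1Cje pools and 4498.1 to 8050.8 in the euploid pools. The part of these differences in the results was not tested, and the effect of leaving the Ts1Cje P15 pool out is given beside the results it touches.

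Promoters are shown for genes at the extremes of the change from P0 to P15 given below. Son, by its brighter probe set, and Ets2 rose over this step, and Setd4 and Chaf1b fell. Sequences are from RefSeq (GRCm38.p6), 250 bases before to 50 after the start of the gene, 5' to 3' on the strand of the gene. Capitals mark matches, on either strand, to the 7-letter core of the E2F motif (TTCCCGC), bound by the factors that drive S-phase genes, or of the ETS motif (CCGGAAG).
Son, chr16:91647574-91647873, plus strand: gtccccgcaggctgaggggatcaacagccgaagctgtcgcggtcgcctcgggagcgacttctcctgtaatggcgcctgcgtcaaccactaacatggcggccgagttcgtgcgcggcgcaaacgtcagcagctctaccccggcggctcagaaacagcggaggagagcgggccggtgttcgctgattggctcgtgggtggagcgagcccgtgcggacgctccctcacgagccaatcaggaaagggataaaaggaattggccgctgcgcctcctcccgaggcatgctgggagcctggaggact
Ets2, chr16:95702157-95702456, plus strand: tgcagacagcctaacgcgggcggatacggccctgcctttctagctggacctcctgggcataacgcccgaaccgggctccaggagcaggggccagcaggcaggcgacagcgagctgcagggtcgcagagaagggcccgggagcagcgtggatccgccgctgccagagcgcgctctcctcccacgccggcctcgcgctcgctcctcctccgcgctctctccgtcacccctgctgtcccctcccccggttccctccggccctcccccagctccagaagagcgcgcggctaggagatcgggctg
Setd4, chr16:93603766-93604065, minus strand: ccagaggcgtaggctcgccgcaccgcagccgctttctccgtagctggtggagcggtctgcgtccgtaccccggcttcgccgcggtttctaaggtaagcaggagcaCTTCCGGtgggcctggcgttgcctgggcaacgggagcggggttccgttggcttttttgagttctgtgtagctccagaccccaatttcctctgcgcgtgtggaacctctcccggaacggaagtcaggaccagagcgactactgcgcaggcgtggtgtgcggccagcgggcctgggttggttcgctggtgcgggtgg
Chaf1b, chr16:93883651-93883950, plus strand: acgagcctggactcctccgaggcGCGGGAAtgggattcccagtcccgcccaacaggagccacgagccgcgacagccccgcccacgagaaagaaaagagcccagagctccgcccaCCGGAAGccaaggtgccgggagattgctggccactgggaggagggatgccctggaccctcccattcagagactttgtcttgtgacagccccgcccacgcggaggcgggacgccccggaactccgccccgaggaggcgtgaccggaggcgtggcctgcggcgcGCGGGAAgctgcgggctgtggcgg
All 6 genes had a promoter in the table, with 65.3% to 76.0% G and C and 29 to 37 CpG dinucleotides, against medians of 52.7% and 7 over 32851 promoters. Chaf1b held 2 E2F core matches, beginning at positions -227 and 27 relative to the start, and was the only member with this motif, which 4.6% of all promoters held. The ETS core was found in Chaf1b, at position -136, and in Setd4, at -145, while 8.86% of all promoters held it. Son, Ets2, Hmgn1 and Paxbp1 had neither set of letters in this window.

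Mean signal was higher in Ts1Cje than in euploid cerebellum at every stage for 5 of the 6 genes, though for Ets2 at P15 by only 0.04 with overlapping arrays, and no member was called. Son, Hmgn1, Ets2, Setd4 and Paxbp1 had higher mean signal in the Ts1Cje pool than in the euploid pool at each of the 3 stages, and Chaf1b at P15 alone; at P30 Chaf1b lay below without overlap, as 19.8% of tested probe sets did. On the log2(signal + 4.6) scale, the 6 genes, each by its brightest probe set, had a median difference of 0.49 over the 3 stages. Over all 7453 tested probe sets it was -0.001. An added copy at unchanged expression per copy would give 0.585 for a bright probe set and less for a dim one. By stage the median of the 6 genes was 0.51 in newborns, 0.47 at P15 and 0.56 at P30. It was 0.60 over the stages without the Ts1Cje P15 pool. Such differences are somewhat smaller than ratios of signal for dim probe sets, because of the added constant.

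**Figure D1:**
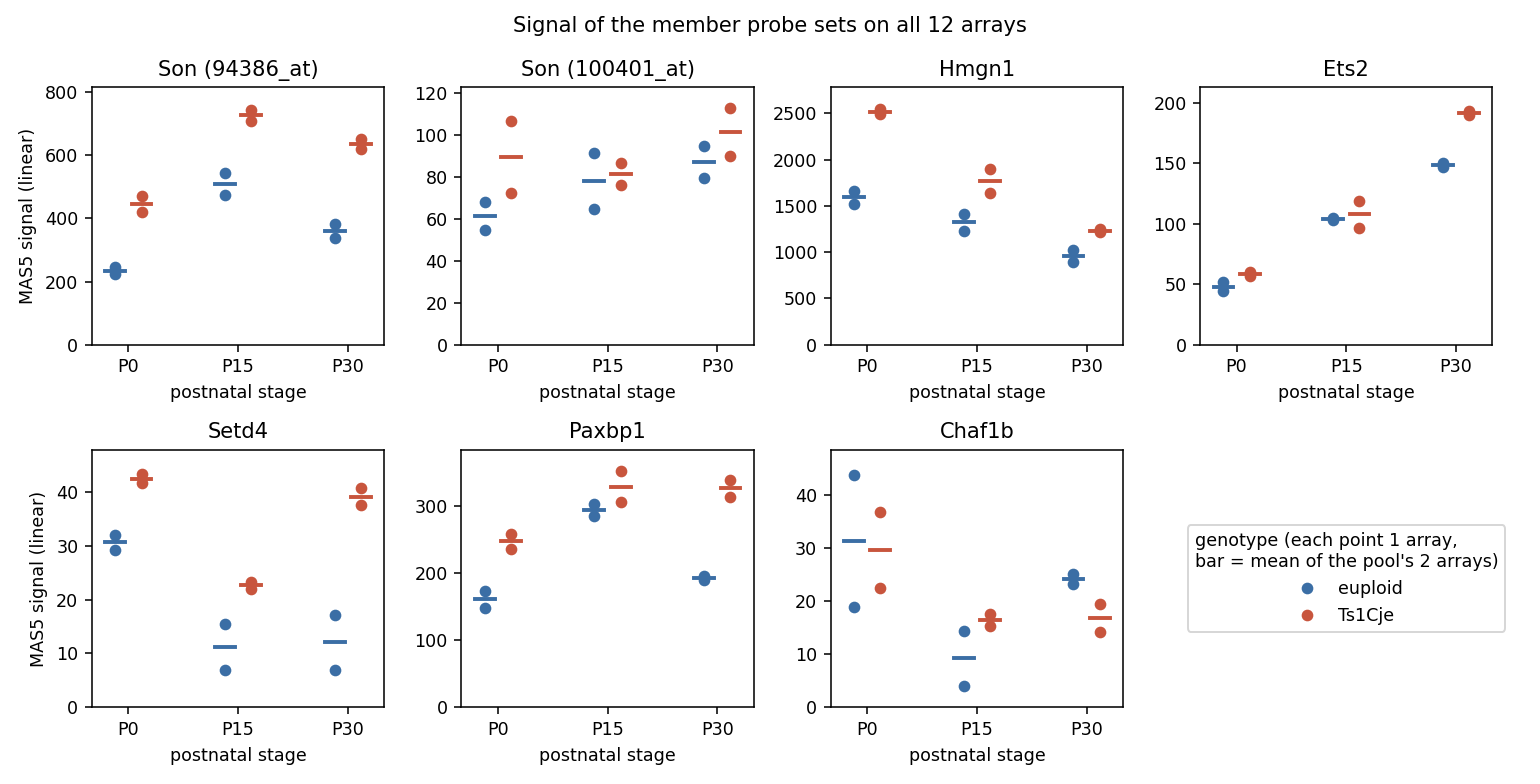
MAS5 signal on a linear axis from 0 (vertical) at P0, P15 and P30 (horizontal) for the 7 probe sets, with 1 point per array, blue for euploid and red for Ts1Cje, and a bar at the mean of the 2 arrays of a pool. Red points lie above blue points at all 3 stages for the brighter Son probe set, Hmgn1, Setd4 and Paxbp1, while those of Chaf1b lie above at P15, below at P30 and overlap at P0.

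All Ts1Cje arrays lay above all euploid arrays for 6 of the 7 probe sets at P0, where 22.4% of tested probe sets did, for 5 at P15 (21%) and for 5 at P30 (19.6%). At all 3 stages together, 4 of 7 were so separated, against 0.926% of all tested probe sets. The mean difference was positive at all 3 stages for 6 of 7, against 11.7%. In the limma fit over pools, 4 of the 7 had an unadjusted p under 0.05 and were higher, against 1.81% of tested probe sets. No probe set of the array passed a Benjamini-Hochberg adjusted p of 0.05 in that fit (0 of 7453, or 0%; 217 had an unadjusted p under 0.05), so none of the 7 was called. With 1 pool per genotype and stage, the spread behind these p-values is how far the genotype difference varied between stages (2 residual degrees of freedom). It is moderated by the spread of other probe sets (prior 6.39). Differences between stages, pools and arrays cannot be told apart in it, and it may be technical in part.

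Son, the speckle protein, had the largest difference among the brighter members. Its brighter probe set (94386_at) read 246.0 and 223.2 in euploid and 470.4 and 420.6 in Ts1Cje cerebellum at P0. At P15 the arrays read 543.7 and 473.0 against 709.7 and 743.6, and at P30 383.8 and 337.8 against 651.3 and 618.9. The genotypes did not overlap at any stage, and both Ts1Cje P0 arrays exceeded both euploid P30 arrays. The differences were 0.91, 0.51 and 0.81, or 1.88-fold, 1.43-fold and 1.75-fold, and 0.75 ± 0.12 over the stages (SE, n = 3 stages, limma adjusted p = 0.481), with a 95% interval of 0.46 to 1.03.

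The other Son probe set (100401_at) was dimmer and showed less. It read 55.0 and 68.4 against 72.6 and 107.0 at P0, 64.7 and 91.8 against 86.9 and 76.2 at P15, and 79.4 and 94.8 against 90.1 and 113.1 at P30. The genotypes were separated at P0 and overlapped at P15 and P30. Its differences were 0.49, 0.07 and 0.21, and 0.26 ± 0.14 over the stages (limma adjusted p = 0.9999, interval -0.07 to 0.59). The sign at P15 turned without the first array of the euploid or of the Ts1Cje P15 pool (-0.16 and -0.017). Both probe sets name the same gene, and which transcripts each detects was not analysed here.

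Hmgn1, the nucleosome-binding protein, was the brightest member and lay in the top 1% of probe sets by mean signal. Euploid arrays read 1523.2 and 1665.2 at P0, 1228.3 and 1416.6 at P15 and 1020.2 and 888.3 at P30. Ts1Cje arrays read 2490.3 and 2540.1, then 1635.0 and 1900.6, then 1217.2 and 1246.8. Ts1Cje lay above euploid without overlap at each stage. The first Ts1Cje P15 array lay between the euploid P0 arrays and the second above them. The differences were 0.66, 0.42 and 0.37, or 1.58-fold, 1.34-fold and 1.29-fold. Over the stages it was 0.48 ± 0.11 (limma adjusted p = 0.753), with an interval of 0.24 to 0.72.

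Paxbp1, the adaptor between Pax factors and histone methylation, read 173.2 and 148.5 in euploid and 258.5 and 235.1 in Ts1Cje cerebellum at P0. It read 302.1 and 284.8 against 351.3 and 305.2 at P15, and 195.1 and 189.2 against 338.8 and 313.4 at P30. The gap at P15 was narrow, with 302.1 below 305.2, and wide at the other stages. The differences were 0.61, 0.16 and 0.75, or 1.52-fold, 1.11-fold and 1.68-fold, and 0.50 ± 0.15 over the stages (limma adjusted p = 0.9999, interval 0.17 to 0.84). Without the Ts1Cje P15 pool it was 0.68.

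Setd4, the SET-domain protein, was dim (mean signal 26.4) and had the highest difference of the 6. Euploid arrays read 32.1 and 29.3 at P0, 15.5 and 6.9 at P15 and 17.1 and 7.0 at P30. Ts1Cje arrays read 41.6 and 43.3, 22.0 and 23.3, and 37.6 and 40.7. The genotypes were separated at each stage, and the euploid arrays of a pool differed by more than 2-fold at P15 and P30. The differences were 0.42, 0.84 and 1.46, and 0.91 ± 0.24 over the stages (limma adjusted p = 0.9999, interval 0.37 to 1.45). From the second array of each pool alone the difference over stages was 1.25 and from the first alone 0.57, and a constant of 16 in place of 4.6 gave 0.999 at P30.

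Ets2, the transcription factor, had the smallest difference among the brighter members. It read 44.0 and 51.4 in euploid and 57.1 and 60.4 in Ts1Cje cerebellum at P0, 105.0 and 103.0 against 118.8 and 96.5 at P15, and 146.5 and 149.8 against 193.1 and 189.8 at P30. The genotypes were separated at P0 and P30 and overlapped at P15. The differences were 0.28, 0.04 and 0.36, and 0.23 ± 0.14 over the stages (limma adjusted p = 0.9999). The 95% interval of -0.08 to 0.54 ended below 0.585, which the interval of each other probe set included. The value of an added copy is somewhat under 0.585 for a dim probe set, because of the added constant. Without the Ts1Cje P15 pool the Ets2 difference was 0.32, and no interval was computed for it.

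Chaf1b, the chromatin assembly subunit, was the dimmest (mean signal 21.3) and showed no steady difference. Euploid arrays read 19.0 and 43.8 at P0, 14.4 and 4.1 at P15 and 23.2 and 25.1 at P30, and Ts1Cje arrays 22.5 and 36.8, 15.3 and 17.6, and 19.4 and 14.2. The genotypes overlapped at P0, Ts1Cje was higher at P15 and lower at P30. The differences were -0.01, 0.71 and -0.44, and 0.09 ± 0.26 over the stages (limma adjusted p = 0.9999, interval -0.50 to 0.67). Over the stages the sign turned without the Ts1Cje P15 pool (-0.22), without the first euploid P0 array (-0.086), without the second euploid P15 array (-0.10) and without the second Ts1Cje P0 array (-0.015).

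**Figure D2:**
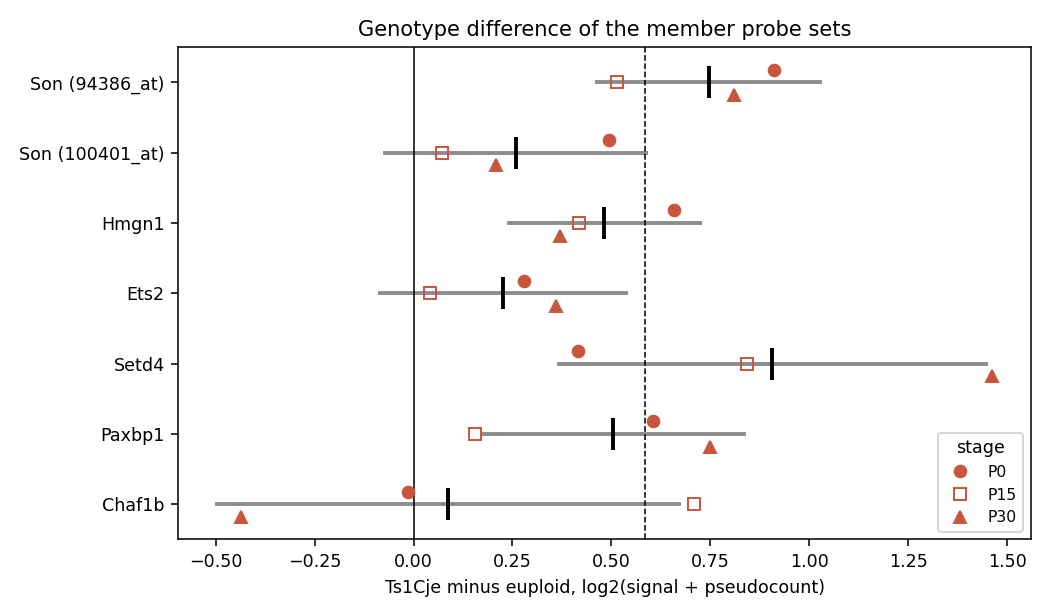
Ts1Cje minus euploid on the log2(signal + 4.6) scale (horizontal) for each probe set (vertical): symbols are the 3 stages, the black tick is the limma estimate over stages and the grey line its 95% interval, with a dashed line at 0.585. Estimates lie between 0.09 for Chaf1b and 0.91 for Setd4, and the P15 value is the lowest of the 3 stages for both Son probe sets, Ets2 and Paxbp1.

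Whether the dosage difference changed steadily with age was tested with the product of genotype and postnatal day. None of the 7 probe sets passed (0 of 7453 called, 0%; 193, or 2.59%, had an unadjusted p under 0.05, and 0 of the 7). Setd4 had the steepest fitted change from P0 to P30, 1.05 ± 0.51 (limma adjusted p = 0.9997), with an interval of -0.09 to 2.18. Hmgn1 had -0.29 ± 0.32 and Chaf1b -0.42 ± 0.64. The interval for Hmgn1, -1.001 to 0.43, was the narrowest of the 7.

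Over development the 6 genes went separate ways. Between P0 and P15, Son, Ets2 and Paxbp1 rose and Setd4 and Chaf1b fell: 3 of the 7 probe sets were called higher, against 13.6% of all tested probe sets, and 2 lower, against 14.4%. Between P15 and P30 none of the 7 was called (4.74% of all tested were), and 2 had an unadjusted p under 0.05, against 21.6%. In whole tissue, fewer cells of a type and less RNA per cell cannot be told apart. Leaving out the Ts1Cje P15 pool kept 4 of the 5 calls from P0 to P15, and ended that of Setd4, whose change was -0.95 without it (limma adjusted p = 0.101).

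Ets2 was the member with the largest change from P0 to P30, rising at both steps in both genotypes. With the arrays given above, each stage lay above the one before without overlap, in euploid from 44.0 and 51.4 to 146.5 and 149.8. The rise was 0.94 ± 0.17 from P0 to P15 (SE, limma adjusted p = 0.00389) and 0.65 ± 0.17 from P15 to P30 (adjusted p = 0.0683). From P0 to P30 the change was 1.55 in euploid and 1.63 in Ts1Cje cerebellum, or 2.93-fold and 3.10-fold. The fitted change of the genotype difference from P0 to P30 was 0.08 ± 0.40 (interval -0.80 to 0.96), so at this precision the courses could not be told apart.

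The brighter Son probe set and Paxbp1 were highest at P15 in the euploid pools, and the dimmer Son probe set at P30 (pool means of 61.7, 78.25 and 87.1 over the 3 stages). The brighter Son probe set rose by 0.90 ± 0.15 (limma adjusted p = 0.00299) and then had -0.34 ± 0.15 (adjusted p = 0.236). Its rise to P15 was 1.10 in euploid and 0.70 in Ts1Cje pools, and from P15 to P30 the changes were -0.49 and -0.19. The dimmer Son probe set changed by 0.10 ± 0.18 (adjusted p = 0.720), with 0.31 in euploid and -0.11 in Ts1Cje pools. The 95% intervals of the 2 Son probe sets for this step, 0.55 to 1.25 and -0.30 to 0.50, did not overlap, and the difference between them was not tested. Paxbp1 rose by 0.63 ± 0.18 (adjusted p = 0.0308), with 0.85 in euploid and 0.40 in Ts1Cje pools, and had -0.30 ± 0.18 afterwards (adjusted p = 0.359). From the second array of each pool alone the Paxbp1 rise to P15 was 0.64 and was not called. Its call was lost without the first Ts1Cje P15 array (0.58, adjusted p = 0.0624) and, with the change the same, in a fit without the intensity trend (adjusted p = 0.0535).

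Hmgn1 declined from stage to stage in both genotypes, without overlap between arrays of successive stages. The differences were -0.39 ± 0.13 from P0 to P15 (limma adjusted p = 0.0538) and -0.49 ± 0.13 from P15 to P30 (adjusted p = 0.0746), so neither step was called. From P0 to P30 the pool means differed by -0.74 in euploid and -1.03 in Ts1Cje cerebellum, which leaves 0.599 and 0.491 of the P0 level. The step to P15 passed without the second euploid P15 array (adjusted p = 0.0419) or without the second Ts1Cje P15 array (adjusted p = 0.0453).

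Setd4 and Chaf1b both fell from P0 to P15. For Setd4 the change was -1.001 ± 0.29 (limma adjusted p = 0.0329), with -1.21 in euploid and -0.79 in Ts1Cje pools. At P30 the euploid pool had stayed low while the Ts1Cje pool was back near its P0 level, with changes from P0 of -1.15 and -0.11. For Chaf1b the change was -1.03 ± 0.31 (adjusted p = 0.0392), with -1.39 and -0.67, and the second euploid P15 array, at 4.1, was its lowest value. Chaf1b changed by 0.59 ± 0.31 from P15 to P30 (adjusted p = 0.314). From the first array of each pool alone, the Chaf1b change from P0 to P15 was -0.38 and was not called. With arrays left out it ran from -1.69 to -0.38. The Setd4 change was -0.83 from the first array of each pool alone and -1.17 from the second alone, and neither was called. The Setd4 call was lost without the second euploid P15 array (-0.80, adjusted p = 0.0974) or without the first euploid P30 array, where the change itself stayed at -1.001 (adjusted p = 0.0706). The Chaf1b call was lost without any of 5 single arrays: the second of euploid P0, euploid P15 and Ts1Cje P0, and the first of Ts1Cje P15 and Ts1Cje P30 (changes of -0.75 to -1.03, adjusted p = 0.0550 to 0.110).

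**Figure D3:**
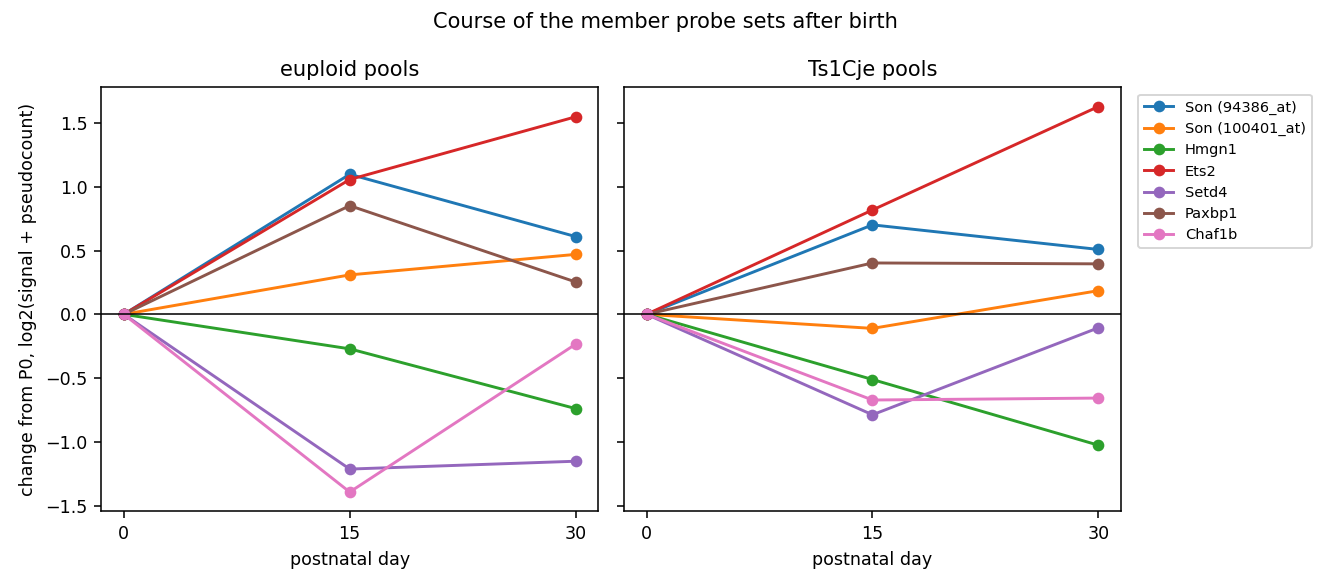
Change from P0 on the log2(signal + 4.6) scale (vertical) against postnatal day (horizontal) for the 7 probe sets in the euploid pools (left) and the Ts1Cje pools (right), each point the mean of 2 arrays of 1 pool. Ets2 rises to 1.55 and 1.63 at P30, Hmgn1 runs down to -0.74 and -1.03, and Setd4 ends at -1.15 in euploid but -0.11 in Ts1Cje pools.

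Summed signal of cell division genes fell from P0 to P15, as Setd4 and Chaf1b did, and again to P30, as those did not. Of 33 cell division genes listed, 30 were on the array and 21 were tested, and their median from P0 to P15 was -0.52, against -0.03 for all tested probe sets, with 7 of the 21 called lower (14.4% of all tested probe sets) and 0 higher (13.6%). Their summed signal was 1741.3 to 2003.4 at P0, 1199.8 to 1353.1 at P15 and 950.9 to 1144.7 at P30, and Mcm6 was under 10 on every array. Mki67, a marker of cycling cells, fell by 1.08 ± 0.28 (limma adjusted p = 0.021) and fell by 2.30 from P15 to P30 (adjusted p = 0.00451), and Pcna, the sliding clamp of DNA replication, had -0.53 ± 0.19 (adjusted p = 0.0709). Mean signal of Chaf1b was not lower at P30 than at P15 in either genotype. The part of cell division in the lower P15 values of Chaf1b, Setd4 and Hmgn1 was not tested. Markers of myelin went the other way, from 93.9 to 147.4 in summed signal at P0 to 4147.5 to 5489.8 later (5 of 6 on the array; Cnp under 10 throughout).

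Other genes of the trisomic segment gave the comparison for dosage. Of 46 listed trisomic genes outside the nuclear group, 26 were on the array and 16 were tested. Their median difference was 0.50, positive for 16 of 16. It was positive at every stage for 15 of them (11.7% of all tested probe sets), and 10 were separated from euploid at all 3 stages (0.926%). The range was 0.19 for Sh3bgr to 0.61 for Cbr1, a carbonyl reductase, and the brightest were Ttc3, a ubiquitin ligase, at 0.49 ± 0.10 and Atp5o, a subunit of ATP synthase, at 0.56 ± 0.11 (limma, SE). The 6 nuclear genes spread more widely, from 0.09 to 0.91, with both ends at dim probe sets. From P0 to P15, 1 of the 16 rose (C2cd2, 1.10; 13.6% of all tested probe sets rose) and 4 fell (14.4% of all), of which Rcan1, the calcineurin inhibitor, fell most (by 1.38). Of 16 other trisomic nuclear genes listed, 4 were on the array and 1 was tested, the kinase Dyrk1a (0.26 ± 0.13, with stage values of 0.29, -0.05 and 0.55), while Runx1 and Sim2 stayed under 10 on all arrays.

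Nuclear genes of chromosome 16 outside the segment, present in 2 copies, did not share the shift over the stages, though their median moved from stage to stage. All 7 of 11 listed that were on the array were tested, with a median of 0.03, and 0 of the 7 were positive at all 3 stages. Bach1, a repressor of heme-responsive genes, had 0.19 ± 0.21 from stage values of -0.49, 0.75 and 0.30, Nrip1, a nuclear receptor corepressor, had -0.18 ± 0.18, and Bcl6, a transcriptional repressor, had 0.20 ± 0.14. In each of the 7 the sign differed between stages. Over development Bcl6 rose by 2.21 from P0 to P15 (limma adjusted p = 7.27e-05) and by 1.24 from P15 to P30 (adjusted p = 0.0088).

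Partners and relatives of the members elsewhere in the genome had genotype differences between -0.32 and 0.37. None of those tested was called for genotype, and neither was any other probe set of the array (0 of 7453, 0%). For Son, 21 of 25 listed speckle and SR splicing genes were tested, with a median of -0.06 and 8 positive. U2af2, a subunit of the factor that recognises the 3' splice site, had 0.07 ± 0.12, Srsf2, an SR protein, 0.14 ± 0.11, and Srsf10, at the low end, -0.32 ± 0.15. From P0 to P15, 2 of the 21 rose and 1 fell, against 13.6% and 14.4% of all tested probe sets. Clk1, a kinase of SR proteins, rose by 1.07 (limma adjusted p = 0.00396) and Srsf6 by 0.76 (adjusted p = 0.023), and Srsf2 fell by 0.51 (adjusted p = 0.0255). The remaining 18 did not pass.

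For Hmgn1, 4 of 14 listed HMG and linker histone genes were tested, with a median genotype difference of 0.09. From P0 to P15, 2 of the 4 fell and 0 rose, against 14.4% and 13.6% of all tested probe sets. Hmgn5, its X-linked relative, had 0.07 ± 0.13. Hmgb3 and Hmgb2, DNA-bending HMG-box proteins of proliferating and immature cells, had -1.74 and -1.32 from P0 to P15 (limma adjusted p = 6.43e-05 and 0.0122) and so fell, against -0.39 for Hmgn1. Linker histone H1f2 rose by 1.21 from P15 to P30 (adjusted p = 0.0155).

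For Ets2, 6 of 20 listed ETS family genes were tested and 0 of the 6 was called at either step of development, against 28% of all tested probe sets from P0 to P15 and 4.74% from P15 to P30. Their median was 0.18 for genotype and 0.20 for P0 to P15. Erf, an ETS repressor, had 0.37 ± 0.16 and Elf4 0.35 ± 0.16 for genotype, and Gabpa, which lies on chromosome 16 in 2 copies, had 0.02 ± 0.21.

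For Setd4, 10 of 32 listed SET-domain genes were tested, with a median of 0.07. From P0 to P15, 4 of the 10 fell and 0 rose, against 14.4% and 13.6% of all tested probe sets. The changes were -2.35 for Smyd5, -1.56 for Smyd2, -0.94 for Ehmt2, an H3K9 methyltransferase, and -0.60 for Setd6 (limma adjusted p = 0.00468, 0.00971, 0.0134 and 0.0482). From P15 to P30 Ezh1 rose by 1.02 (adjusted p = 0.014), while Ezh2, its counterpart in Polycomb repression, and Setdb1 fell, with -0.97 and -0.999 (adjusted p = 0.0269 and 0.0378).

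For Paxbp1, 6 of 12 listed Pax and H3K4 methylation genes were tested, with a median of 0.06. From P0 to P15, 2 of the 6 rose and 1 fell, against 13.6% and 14.4% of all tested probe sets. Pax6, a Pax factor of granule cells, had a genotype difference of -0.07 ± 0.22 and rose by 1.49 from P0 to P15 (limma adjusted p = 0.00443), as did the demethylase Kdm6a, by 0.52 (adjusted p = 0.034). Dpy30, a core subunit of H3K4 methyltransferases, fell by 0.55 (adjusted p = 0.0351). Pax3, the partner after which Paxbp1 was named, was dim and had 0.33 ± 0.21 for genotype.

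For Chaf1b, 12 of 19 listed histone chaperone genes were tested, with a median of 0.01. From P0 to P15, 2 of the 12 were called higher and 3 lower, against 13.6% and 14.4% of all tested probe sets. Anp32a, a member of a histone chaperone family, rose by 1.11 and Supt6 by 0.48 (limma adjusted p = 0.000485 and 0.0418), and Set, Npm1 and Nap1l1 fell, with -0.71, -0.69 and -0.67 (adjusted p = 0.00608, 0.00513 and 0.0253). Rbbp7, which binds histone H4, had -0.18 ± 0.13 (adjusted p = 0.344), and Asf1a, which hands histones to chromatin assembly factor, had -0.10 ± 0.20 (adjusted p = 0.760).

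**Figure D4:**
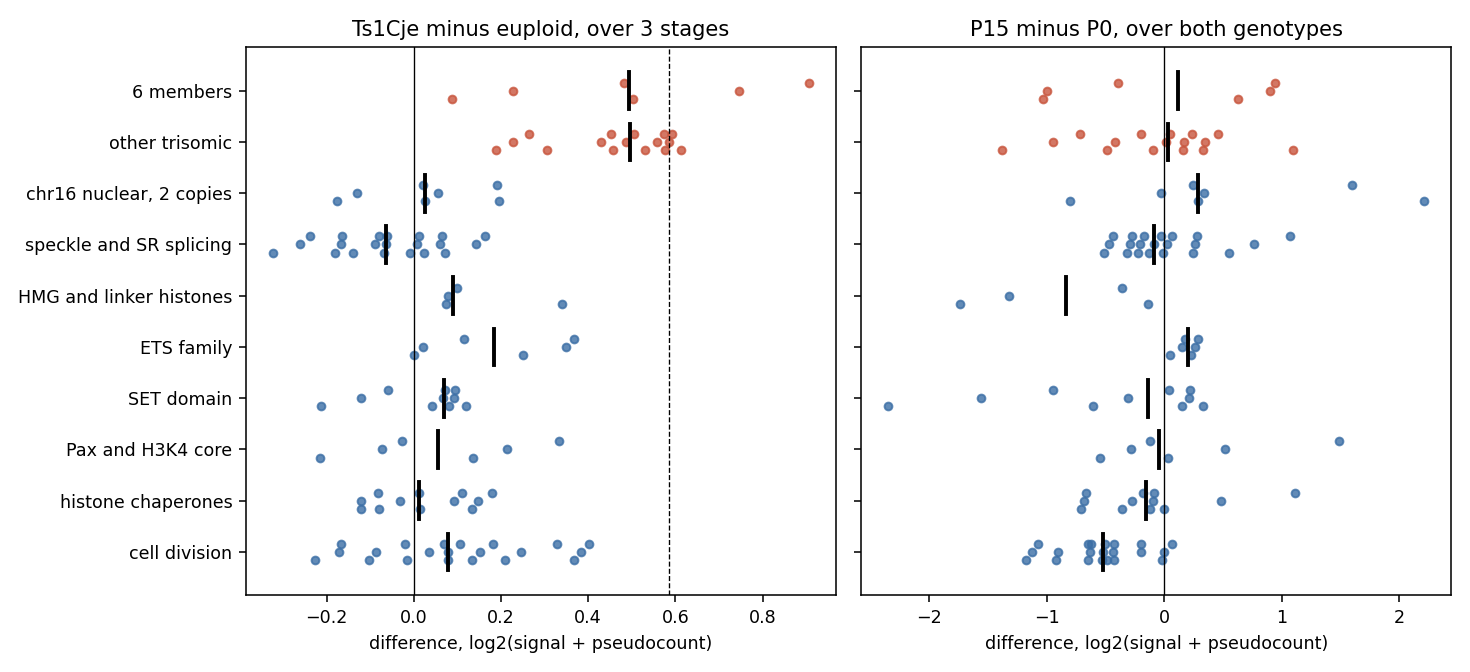
Difference on the log2(signal + 4.6) scale (horizontal) of each tested gene in 10 lists (vertical), for genotype (left, dashed line at 0.585) and for P15 minus P0 (right), with red for trisomic genes, blue for other genes and a black bar at the median. Both trisomic rows have medians near 0.5 for genotype and the other rows lie between -0.06 and 0.18, while on the right the 6 members spread from -1.03 to 0.94.

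Genes most like each member were sought by the root mean square difference of centred log2 values over the 6 pools, from the brightest probe set of each. The same pools give the genotype and stage differences, so neighbours resemble their member in these by construction. Nearest to Son were C2cd2 (0.15) and Paxbp1 (0.18), both also of the trisomic segment, with genotype differences of 0.57 and 0.50. Nearest to Ets2 were Hr, a corepressor (0.075), and Scn8a, a sodium channel (0.11), which changed by 1.07 and 1.16 from P0 to P15. Nearest to Paxbp1 were Cpd (0.093) and Plekha1 (0.16), to Hmgn1 Cetn3 (0.13) and Angptl4 (0.14), and to Chaf1b Efnb3 (0.13) and Sdc2 (0.13). Setd4 had no such close neighbour, with Notch1 at 0.26 and Sema6a at 0.31. None of these genes other than C2cd2 and Paxbp1 lies on chromosome 16. The others had genotype differences of 0.78 (Notch1), 0.65 (Sema6a), 0.54 (Plekha1), 0.41 (Cpd) and 0.39 (Angptl4). Those of Cetn3, Hr, Sdc2, Scn8a and Efnb3 were 0.32, 0.24, 0.24, 0.14 and 0.11.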

How the data were processed

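Total RNA from individual frozen cerebella was DNase-treated, quality-checked and pooled, and made into biotinylated cRNA, per the labels' protocols. As deposited by the authors, values are unlogged probe set intensities (the MAS5 signal named in the submitters' processing notes, its settings not stated there). All 12 arrays had been scaled alike by the authors, with a mean of 100.05 to 100.06 after trimming 2% at each end, so no scaling was added. Detection calls were not analysed here. The labels state neither sex nor strain background.

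Signals were transformed to log2(signal + 4.6), the constant being the 20th percentile of all values. The 66 control probe sets and those whose mean over arrays fell below 20.1, the 40th percentile, were left out, which left 7453. Gene names came from the platform annotation. Of the 12488 probe sets, 10855 had 1 symbol, 396 had several and 1237 had none. Of the 10855 with 1 symbol, 10839 matched RefSeq (GRCm38.p6). A gene in a list was represented by its brightest probe set.

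Both arrays of a pool were averaged, and limma 3.58.1 under R 4.3.3 fitted linear models (eBayes with a trend), two-sided, with Benjamini-Hochberg adjustment over all tested probe sets and a threshold of 0.05. The model held genotype and stage (2 residual degrees of freedom, prior 6.39), and another added genotype by day (1 residual degree of freedom, prior 9.51). The confidence level of intervals is 95%, and the number of pools limits the precision. Permuting genotype within stages exactly, the smallest possible p is 0.25. The fits were tested on simulated data with known changes. Of simulated 1.5-fold changes, 49.5% were recovered for genotype and 19% for P15 against P0. Of 2-fold changes, 95% and 81.5% were recovered. The 6 genes and the lists were chosen with earlier results of these data known. Named list genes were drawn from the 2 brightest, those with the highest and lowest genotype difference and those with the largest rise and fall to P15. Not all of these are named: Etv4, Elk1, Kmt2e, Ash2l, Rrm1 and Kif23 are among those only counted. Ifngr2 and Vps26c, also called lower at P15, and others outside that rule are counted, and Setd6, Setdb1, Ezh2, Supt6, Npm1 and Nap1l1 are named because they were called. Alternatives changed the constant, filter, scaling, trend and arrays used. Figures used matplotlib 3.10.9 (python 3.11.15).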

Additional observations from a re-analysis of the deposited data

Results flagged for a closer look

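Chaf1b differed between stages in the direction of its genotype difference: both Ts1Cje arrays lay above both euploid arrays at P15 (0.71) and below them at P30 (-0.44), a gap of 1.15 on the log2 scale. This difference between stages was not tested as such, since each stage has 1 pool a side, and the model with postnatal day gave -0.42 ± 0.64 (limma adjusted p = 0.9997). The P15 value rests on euploid arrays of 14.4 and 4.1, and from the first array of each pool alone it was 0.067. The part of low signal in it was not tested.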

How the results depend on the processing

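Over 27 alternatives the median genotype difference of the 6 genes stayed positive; it was 0.60 without the Ts1Cje P15 pool (chosen after seeing the data) or without the P15 stage, 0.42 without P0, and 0.47 to 0.51 with arrays left out. Of the other genotype results, 6 probe sets were called in a fit of 12 arrays in place of 6 pool means. That fit held hybridisation number as a term and the pool as a block, with a correlation of 0.153 within pools. Among the 6 was 1 member, Son (0.75, limma adjusted p = 0.00347). Over pool means, 1 probe set was called without P0 and 4 without P30. The fit of 12 arrays also called 898 probe sets from P15 to P30 (353 over pools), with 2 members, Ets2 and Hmgn1. Apart from that correlation it treats arrays of a pool as replicates, and the part of hybridisation number alone was not tested. The numbers mark no stated pairing: array-to-array differences of 15 pairs of pools correlated at -0.12 to 0.35, with 7 over 0.1. Member calls from P0 to P15 went from 5 to 3 without the filter or with quantile scaling, where Setd4 and Chaf1b were lost, to 4 without the trend, where Paxbp1 was lost, and were 3 to 6 with arrays left out. P15 to P30 gave 199 calls without the filter, 183 without the trend and 98 to 746 with arrays left out. The change with day gave 0 to 9. With the 60th percentile filter, 3 members were separated at P15, since Setd4 and Chaf1b were filtered out.

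Signs turned for Chaf1b over stages (-0.22 without the Ts1Cje P15 pool or the P15 stage, -0.10 to 0.27 with arrays left out), at P0 (-0.53 to 0.51) and with day (-0.94 to 0.095). With arrays left out they also turned for the dimmer Son probe set at P15 (-0.25 to 0.40) and from P0 to P15 (-0.033 to 0.23), and for Ets2 at P15 (-0.10 to 0.18) and with day (-0.022 to 0.18). The causes were not tested. Mean signals of 26.4 for Setd4 and 21.3 for Chaf1b lie just above the filter of 20.1, and each stage has 1 pool a genotype.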
